A study of Mus musculus with 4 samples.

Results

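The genes Arntl, Arntl2, Clock and Npas2 encode the transcriptional activators of the circadian clock, and their levels were followed across the cell classes and times of a mouse single-nucleus RNA data set. Their rows were taken by gene symbol, and all 4 were present among the 32285 genes counted. Nuclei came from micropunches of the hypothalamic paraventricular nucleus (PVN) of male C57Bl6 mice aged 10 weeks per the sample labels, with 5 PVNs pooled in each library. Tissue was taken at zeitgeber time 8 (ZT8, in hours after lights on, by day) or ZT20 (by night), with 2 libraries at each time and no other treatment named. Whether each library drew on its own animals is not given, so a p-value here covers the variation among 4 libraries, which may be technical. Levels are given as CPM, the unique molecular identifiers (UMIs) of a gene per 1000000 UMIs of the class in that library.

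BMAL1, the product of Arntl, is a bHLH-PAS protein that pairs with CLOCK, and the pair binds E-box elements and switches on the Per, Cry and Nr1d genes among many others. NPAS2 is a paralog of CLOCK that can take its place beside BMAL1 and is known from forebrain neurons, while BMAL2, the product of Arntl2, is a paralog of BMAL1. PER and CRY proteins feed back on the pair, and the receptors REV-ERB and ROR act on Arntl itself through ROR response elements, so Arntl RNA usually cycles while Clock RNA cycles little.

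The promoter windows of Arntl and Npas2 are shown because these were the genes whose levels differed most, Arntl between times in astrocytes and Npas2 between classes. Sequences are from RefSeq on GRCm38.p6 and run 5′ to 3′ on the gene's strand, from 250 bases before to 50 bases after an annotated start. Capitals mark a ROR response element, which holds the core letters AGGTCA.

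Arntl, chr7:113207261-113207560, plus strand: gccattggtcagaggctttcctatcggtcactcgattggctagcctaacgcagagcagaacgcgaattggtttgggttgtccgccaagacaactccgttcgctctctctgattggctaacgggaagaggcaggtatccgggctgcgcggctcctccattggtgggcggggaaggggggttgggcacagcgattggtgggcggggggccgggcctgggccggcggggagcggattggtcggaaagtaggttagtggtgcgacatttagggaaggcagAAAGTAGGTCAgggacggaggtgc

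Npas2, chr1:39194022-39194321, plus strand: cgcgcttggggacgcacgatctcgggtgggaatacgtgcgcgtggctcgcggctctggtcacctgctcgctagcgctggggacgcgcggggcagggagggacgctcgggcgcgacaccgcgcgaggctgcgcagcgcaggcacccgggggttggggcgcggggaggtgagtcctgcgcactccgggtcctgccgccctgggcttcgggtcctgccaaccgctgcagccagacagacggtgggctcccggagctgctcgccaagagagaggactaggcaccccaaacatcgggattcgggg

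The Arntl window held the element AAAGTAGGTCA at bases 277 to 287 on the plus strand, which places it after the annotated start. A ROR response element was found in 0.384% of the 32851 promoter windows in the table, and the core AGGTCA in 16.3%. A second annotated Arntl window, starting 5′ of the one shown, ended before the element. Both strands were also searched for the E-box CACGTG, present in 7.15% of windows, and the D-box TTATGTAA, present in 0.938%. Neither was found in any window of the 4 genes. The windows of Npas2 and Arntl2 held none of these letters, and 1 of 3 Clock windows held the core alone. A match is a description of these letters and not a site of binding.

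On mm10, Arntl (ENSMUSG00000055116) lies on the plus strand at chr7:113207465-113314126 and Arntl2 (ENSMUSG00000040187) on the plus strand at chr6:146796055-146833529. Clock (ENSMUSG00000029238) lies on the minus strand at chr5:76209868-76304792 and Npas2 (ENSMUSG00000026077) on the plus strand at chr1:39193731-39363236. Exons cover 2.83% of the Npas2 span and 7.05% of the Arntl span. CPM are therefore compared between classes and times, never between genes. The antisense gene Gm45355 inside Arntl had 30 UMIs over all kept nuclei.

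The 4 libraries held 6453 to 9413 barcodes, and any pair of libraries shared 10 to 25 of them. Filters left 6053 to 8667 nuclei per library, of which 32.0 and 33.1% by day and 44.1 and 52.2% by night stayed in unnamed clusters and count only in all kept nuclei. The median UMI count per kept nucleus was 4366 and 5148 by day against 3437 and 2063 by night. The largest neuron class, by day and by night, did not carry PVN markers but those of thalamic neurons, and is called thalamic-like. It made up 1300 of 2393 and 1403 of 2559 neuron-like nuclei in the ZT8 libraries, against 816 of 2865 and 758 of 2790 in the ZT20 libraries. Sim1-positive PVN-like neurons were few, 40 and 35 by day against 216 and 185 by night, and the day libraries fell short of the 50 nuclei needed for a test.

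Npas2 was the gene that set the classes apart most. Astrocyte-like nuclei held 175 ± 6.12 CPM (SD, n = 4 libraries) and thalamic-like neurons 175 ± 5.14 CPM, values that overlapped between libraries. GABAergic-like neurons followed at 74.4 ± 10.1 CPM, below every library of the first pair. Endothelial-like nuclei held 32.9 ± 10.7 CPM and the other glutamatergic-like neurons, outside the thalamic-like class, 20.9 ± 5.84 CPM. The lowest levels were in oligodendrocyte precursor-like nuclei at 10.2 ± 5.50 CPM, microglia-like nuclei at 7.26 ± 4.79 CPM and oligodendrocyte-like nuclei at 3.94 ± 2.01 CPM. Those last 3 classes rested on 31, 10 and 40 UMIs over the 4 libraries and overlapped their neighbours in the order. No expression is read from counts this low.

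Clock varied far less between classes than Npas2. Its mean ran from 93.5 ± 2.06 CPM in astrocyte-like nuclei to 166 ± 15.2 CPM in oligodendrocyte-like nuclei, with thalamic-like neurons at 153 ± 3.88, other glutamatergic-like neurons at 152 ± 5.72 and GABAergic-like neurons at 149 ± 9.11 CPM. Each class overlapped the next in the order, and the 3 neuron classes did not differ beyond their spread. Astrocyte-like nuclei, which shared the highest level of Npas2, thus had the lowest mean of Clock.

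The mean of Arntl was highest in thalamic-like neurons at 98.1 ± 7.28 CPM. It was followed by astrocyte-like nuclei at 76.8 ± 27.6 CPM, whose wide SD spans both times and whose libraries overlapped the thalamic-like ones. The other glutamatergic-like and GABAergic-like neurons held 48.2 ± 6.62 and 47.6 ± 7.06 CPM and did not differ beyond their spread. Oligodendrocyte-like nuclei were lowest at 21.3 ± 1.23 CPM. Arntl2 held 30.9 ± 2.08 CPM in other glutamatergic-like, 29.8 ± 1.34 in thalamic-like and 29.5 ± 2.79 in GABAergic-like neurons, which overlapped. Its level in astrocyte-like nuclei was 10.5 ± 1.84 CPM, below every neuron library, and 3.0 ± 1.10 CPM in oligodendrocyte-like nuclei. These orders are descriptions, since the classes share libraries.

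**Figure D1:**
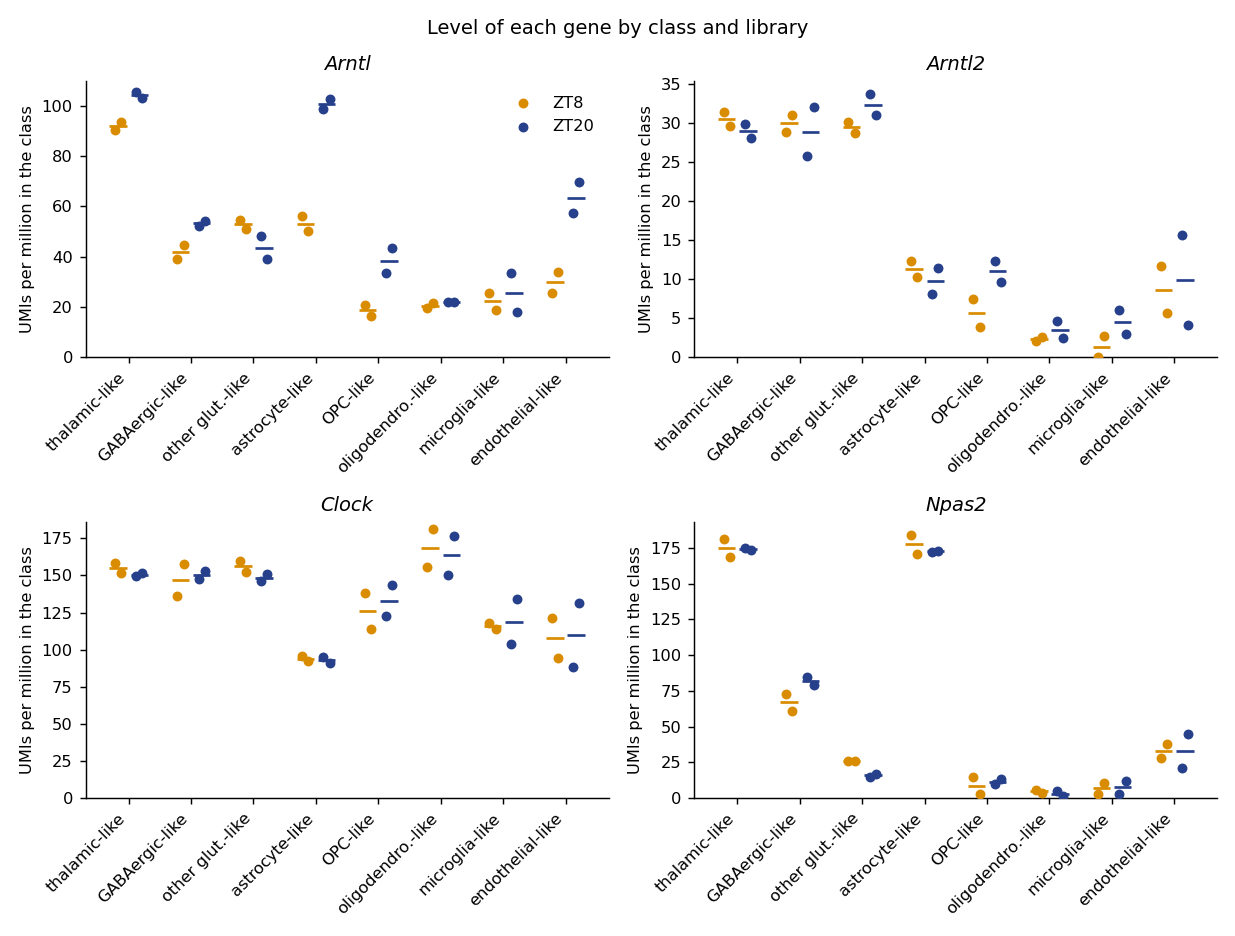
Level of each gene in CPM (linear axis from 0, with its own range in each panel) by cell class, with 1 point per library, orange for ZT8 and blue for ZT20, and a bar at the mean of each time. Astrocyte-like Arntl sits at 50.1 and 56.1 CPM at ZT8 and at 98.6 and 103 CPM at ZT20, while Npas2 is near 175 CPM in astrocyte-like and thalamic-like nuclei and near 4 CPM in oligodendrocyte-like nuclei.

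CLOCK and NPAS2 fill the same place beside BMAL1, so the share of Npas2 among Npas2 plus Clock UMIs was compared across classes. It is a share of captured UMIs and not of molecules, since capture at the 3′ end can differ between the genes. In astrocyte-like nuclei the share was 65.9 and 64.9% at ZT8 and 64.5 and 65.5% at ZT20, with 95% Clopper-Pearson intervals between 60.1 and 70.2%. In thalamic-like neurons it was 53.4 and 52.7% at ZT8 and 53.9 and 53.4% at ZT20. Npas2 thus gave the larger part of the captured UMIs in both classes at both times. That does not rank the genes by molecules, since exons cover 2.83% of the Npas2 span and 14.5% of the Clock span. GABAergic-like neurons held 33.3 ± 3.70% and other glutamatergic-like neurons 11.9 ± 2.68% (SD, n = 4). Oligodendrocyte-like nuclei held 2.38 ± 1.32%, from 2 to 16 Npas2 UMIs per library. Intervals cover counting error only.

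The shares did not separate the times by test. With 2 libraries a time, the smallest two-sided exact permutation p is 0.33. The astrocyte-like share of Npas2 was 0.363 percentage points lower at ZT20 (exact permutation p = 0.667), and the other glutamatergic-like share was 14.2% at ZT8 and 9.67% at ZT20 without overlap (exact permutation p = 0.33). The Arntl2 share of Arntl2 plus Arntl UMIs in astrocyte-like nuclei was 18.0 and 17% at ZT8 and 7.58 and 10.1% at ZT20, also without overlap (exact permutation p = 0.33). In thalamic-like neurons it was 25.8 and 24.1% against 22.1 and 21.4%, and in GABAergic-like neurons 42.6 and 41.0% against 33.1 and 37.1%. The other glutamatergic-like share went the other way, from 35.5 and 36.1% at ZT8 to 41.2 and 44.2% at ZT20 without overlap (exact permutation p = 0.33).

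**Figure D2:**
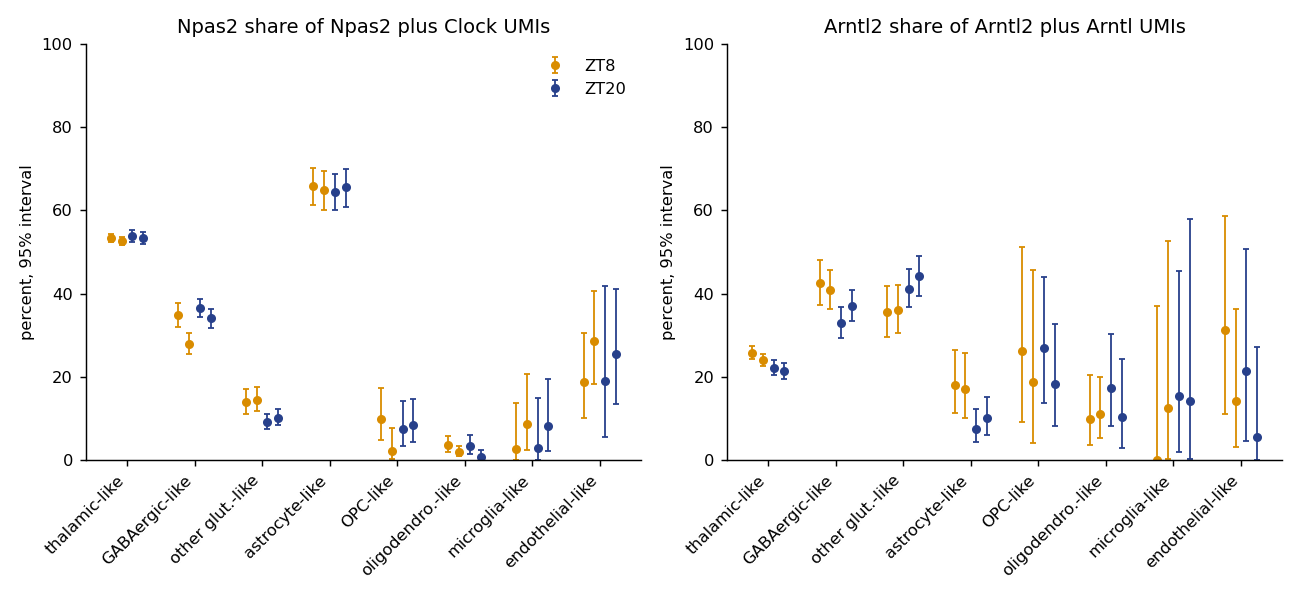
Share of Npas2 among Npas2 plus Clock UMIs, and of Arntl2 among Arntl2 plus Arntl UMIs, in percent, by class, with 1 point per library (orange ZT8, blue ZT20) and bars for 95% Clopper-Pearson intervals. The Npas2 share lies between 64.5 and 65.9% in the 4 astrocyte-like libraries and at or under 3.57% in the oligodendrocyte-like libraries.

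Between ZT8 and ZT20, the change of largest size that passed the test was that of Arntl in astrocyte-like nuclei. Its level was 56.1 and 50.1 CPM at ZT8 and 98.6 and 103 CPM at ZT20, from 83 to 183 UMIs per library. Both night libraries lay above both day libraries. Arntl rose by a log2 change of 0.97 ± 0.14 (SE; edgeR quasi-likelihood test, Benjamini-Hochberg adjusted p = 8.9e-08), and 1 of the 4 genes was called against 6.74% of the 12056 genes tested in this class. Clock held 95.5 and 92.4 CPM against 94.8 and 91.1 CPM, and its log2 change was 0.040 ± 0.12. Npas2 held 184 and 171 CPM against 172 and 173 CPM, with a log2 change of 0.014 ± 0.094. Neither passed the test, and both genes' libraries overlapped between times. Arntl2 rested on 15 to 20 UMIs per library, with a log2 change of -0.17 ± 0.35.

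Astrocyte-like nuclei were divided into sub-clusters, and both ZT20 libraries lay above both ZT8 libraries for Arntl in the 5 larger ones, A0 to A4. The sub-clusters are parts of the same 4 libraries, so they describe the class result and do not repeat it. Counts were low in some of them, with 6 and 10 UMIs at ZT8 in A2, and with 2 and 5 at ZT8 and 8 and 22 at ZT20 in A4. Sub-cluster A5, with 3 to 14 nuclei per library, overlapped, at 32.3 and 62.1 CPM at ZT8 against 86.8 and 0 CPM at ZT20. In sub-cluster A0 it was 39.4 and 38.6 CPM at ZT8 and 87.7 and 71.7 CPM at ZT20. In A3 it was 82.0 and 76.8 CPM against 115 and 125 CPM. Sub-cluster A1 was the least even at ZT8, with 92.1 and 35.0 CPM against 107 and 104 CPM. The makeup of the class moved with time, since A0 had 183 and 149 nuclei by day against 41 and 49 by night. Npas2 was 138 and 178 CPM at ZT8 and 222 and 231 CPM at ZT20 in A1, and 354 and 296 CPM against 115 and 149 CPM in A4. With equal nuclei of each sub-cluster drawn from every library, an alternative added after seeing the data, the log2 change was 0.98 ± 0.17 (edgeR adjusted p = 3.96e-06).

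**Figure D3:**
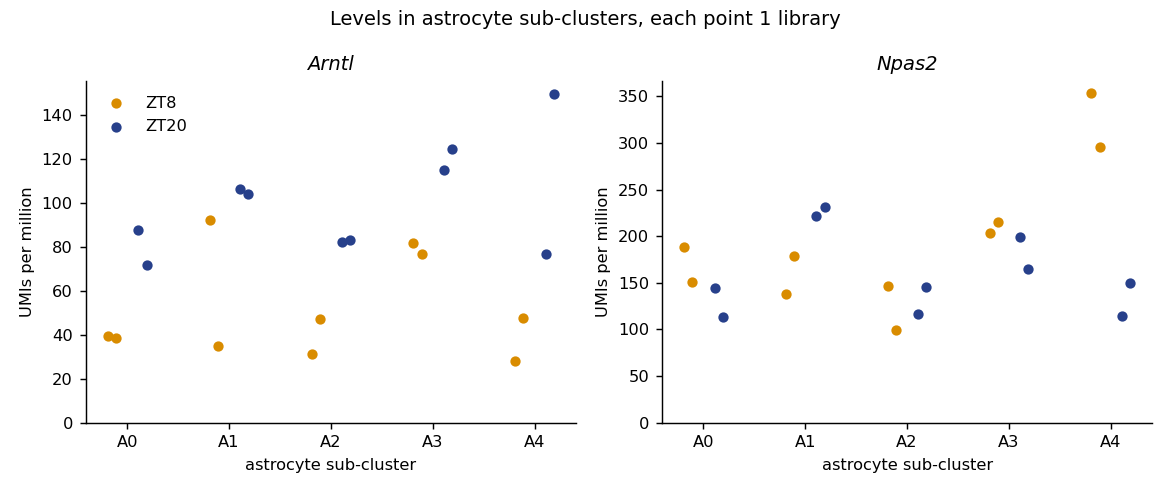
Arntl and Npas2 in CPM (linear axis from 0) in the 5 larger astrocyte sub-clusters, with 1 point per library, orange for ZT8 and blue for ZT20. In each sub-cluster both ZT20 points for Arntl lie above both ZT8 points, from 71.7 to 149 CPM at ZT20, while the Npas2 points of A1 and A4 move in opposite directions.

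Markers of other cells were counted in the same nuclei. The summed CPM of the 9 neuron markers in astrocyte-like nuclei was 2650 and 2844 at ZT8 and 2358 and 2230 at ZT20. The 8 markers of Sim1-positive PVN neurons summed to 102 and 105 CPM at ZT8 and to 392 and 395 CPM at ZT20. For 7 of the 8, both ZT20 libraries lay above both ZT8 libraries. The share of all genes that separate this way is not given here, so no excess is read from that count. Sim1 itself was at 0 in both ZT8 libraries and at 4.85 and 3.62 CPM at ZT20. In the thalamic-like class the same 8 markers summed to 11 and 13.7 CPM at ZT8 and to 96.3 and 93.7 CPM at ZT20. The PVN-like nuclei held 50.1 to 58.2 CPM of Arntl. The part of these markers in the change of Arntl was not tested.

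In thalamic-like neurons Arntl was 90.5 and 93.3 CPM at ZT8 and 105 and 103 CPM at ZT20, with no overlap. The rise was small, a log2 change of 0.20 ± 0.040 (edgeR adjusted p = 7.0e-05), and 1 of 4 genes was called against 20.1% of the genes tested. Of the 8 thalamic-like clusters tested singly, 7 had a positive log2 change and 5 had both ZT20 libraries above both ZT8 libraries. Libraries overlapped in N1, N4 and N6, with log2 changes of 0.049, 0.024 and -0.023. All these clusters are parts of the same 4 libraries, so the counts are descriptions and not repeats of the result. Only cluster N0 passed the test, at 68.5 and 66.5 CPM against 82.9 and 94.2 CPM (log2 change 0.39 ± 0.094, edgeR adjusted p = 0.0078), where 6.80% of genes were called. Npas2 in this class held 181 and 169 CPM at ZT8 and 175 and 174 CPM at ZT20, a log2 change of 0.012 ± 0.033. Clock and Arntl2 had log2 changes of -0.027 ± 0.034 and -0.054 ± 0.067 and did not pass the test.

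GABAergic-like neurons had 2 of the 4 genes called, against 16.4% of the genes tested. The 8 PVN markers summed to 29.5 and 34.0 CPM at ZT8 and to 157 and 145 CPM at ZT20 in this class, and their part in its changes was not tested. Arntl was 39.0 and 44.8 CPM at ZT8 and 52.2 and 54.4 CPM at ZT20 (log2 change 0.35 ± 0.091, edgeR adjusted p = 0.0057). Npas2 was 72.8 and 61.2 CPM against 84.7 and 78.9 CPM (log2 change 0.30 ± 0.078, edgeR adjusted p = 0.0043). Neither gene's libraries overlapped between times. Both calls were lost with equal nuclei of each cluster (log2 changes 0.17 and 0.12, edgeR adjusted p = 0.47 and 0.76, with 4.49% of genes called) and with DESeq2 (adjusted p = 0.21 and 0.20). The Arntl call was also lost without ZT8 replicate 1 (edgeR adjusted p = 0.0999) or ZT20 replicate 2 (0.0826), and the Npas2 call without ZT8 replicate 2 (0.26) or ZT20 replicate 1 (0.12).

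In the other glutamatergic-like neurons Npas2 was 25.9 and 25.9 CPM at ZT8 and 14.7 and 17.1 CPM at ZT20. It fell by 0.70 ± 0.16 on the log2 scale (edgeR adjusted p = 0.0086), and 1 of 4 genes was called against 4.97% of genes. The PVN markers summed to 51.4 and 42.6 CPM at ZT8 and to 164 and 148 CPM at ZT20 in these neurons, and their part was again not tested. Drawing equal nuclei of each cluster left 241 nuclei per library, from 276 to 435, and the SE for Npas2 was then 0.20. With equal nuclei of each cluster the log2 change was -0.60 and the call was lost (edgeR adjusted p = 0.065, with 3.97% of genes called), as it was without ZT20 replicate 1 (0.072). Arntl was 54.7 and 50.9 CPM against 48.1 and 39.2 CPM, a log2 change of -0.28 ± 0.11 that did not pass (edgeR adjusted p = 0.16), although it did without ZT20 replicate 1 (0.046).

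In oligodendrocyte-like nuclei, where 10.6% of genes were called, none of the 3 genes tested passed: Arntl was 19.5 and 21.5 CPM at ZT8 and 22.1 and 22.1 CPM at ZT20 (edgeR adjusted p = 0.80). All 3 also missed an unadjusted p of 0.05, at 0.55, 0.68 and 0.45 for Arntl, Clock and Npas2. Arntl in oligodendrocyte precursor-like nuclei was 21.0 and 16.7 CPM against 33.4 and 43.4 CPM, a log2 change of 1.06 ± 0.34 on 13 to 36 UMIs per library, and did not pass after adjustment (edgeR adjusted p = 0.094). In endothelial-like nuclei it was 25.6 and 34.1 CPM against 57.4 and 69.7 CPM, with 11 to 18 UMIs per library (log2 change 1.08 ± 0.40, edgeR adjusted p = 0.17). In both classes the ZT20 libraries lay above the ZT8 libraries, with an unadjusted edgeR p of 0.0019 in the precursor class and 0.013 in the endothelial-like class. The share of genes called was 1.25% in the precursor class and 3.14% in the endothelial-like class. Only Clock was tested in microglia-like nuclei, with a log2 change of 0.039 ± 0.24 where 0.852% of genes were called.

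Neurons without a class name had Arntl at 41.9 and 52.9 CPM at ZT8 and 60.4 and 63.3 CPM at ZT20 (log2 change 0.35 ± 0.10, edgeR adjusted p = 0.029). Arntl2 there was 28.3 and 22.7 CPM against 40.4 and 39.7 CPM (log2 change 0.65 ± 0.12, edgeR adjusted p = 0.0014). These were 2 calls of 4 genes against 12.0% of genes, and both were lost with equal nuclei of each cluster (edgeR adjusted p = 0.70 and 0.41, with 1.86% of genes called). The Arntl call was lost as well without ZT8 replicate 1, ZT20 replicate 1 or ZT20 replicate 2 (edgeR adjusted p = 0.22, 0.069 and 0.16).

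Pooling all neuron-like nuclei gave other values than the classes did. Npas2 was 136 and 126 CPM at ZT8 and 95.1 and 93.4 CPM at ZT20, and fell by 0.53 ± 0.032 on the log2 scale (edgeR adjusted p = 2.2e-11). Arntl fell by 0.13 ± 0.032 (edgeR adjusted p = 0.0019), from 75.4 and 78.4 to 73.7 and 71.9 CPM, and Clock fell by 0.078 ± 0.024 (edgeR adjusted p = 0.011). That made 3 of 4 genes called against 43.3% of genes. With equal nuclei of each neuron cluster from every library, Npas2 was 126 and 117 CPM against 119 and 117 CPM, a log2 change of -0.033 ± 0.034 (edgeR adjusted p = 0.56). Arntl then turned to a rise of 0.14 ± 0.038 (edgeR adjusted p = 0.0070), and Clock was not called (0.66). In these draws 20.7% of genes were called. The thalamic-like class, high in Npas2 and Arntl, made up a smaller part of the ZT20 neurons, as counted above. The draws made every neuron cluster equal at once, and the part of any 1 class in these changes was not tested. The Clock call was also lost with DESeq2 (adjusted p = 0.083) and without ZT8 replicate 1 or ZT20 replicate 1 (edgeR adjusted p = 0.063 and 0.075).

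In all kept nuclei together Npas2 was 120 and 109 CPM at ZT8 and 85.4 and 83.8 CPM at ZT20 (log2 change -0.47 ± 0.039, edgeR adjusted p = 1.0e-07). Clock had a log2 change of -0.10 ± 0.025 (edgeR adjusted p = 0.0018). Here 2 of 4 genes were called against 47.7% of genes. With equal nuclei of each cluster 27.7% of genes were called and the Npas2 change was -0.105 ± 0.032 (edgeR adjusted p = 0.012). The Clock change was then -0.021 ± 0.027 (edgeR adjusted p = 0.61). The Arntl change was 0.18 ± 0.034 (edgeR adjusted p = 6.1e-05), against -0.027 ± 0.032 in all nuclei.

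**Figure D4:**
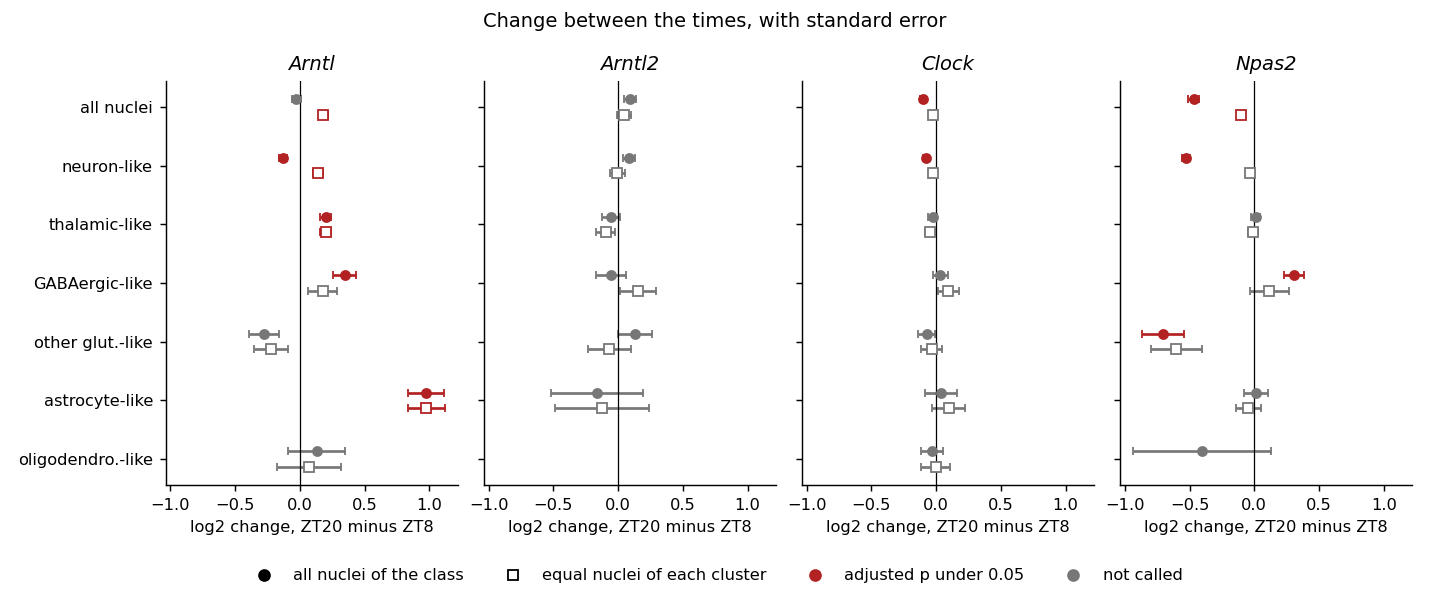
Log2 change from ZT8 to ZT20 with its standard error, for each gene (panels, on a common axis) in pooled nuclei and in classes; circles use all nuclei, open squares equal nuclei of each cluster, and red marks an edgeR adjusted p under 0.05. Arntl stays at 0.97 and 0.98 in astrocyte-like nuclei and at 0.20 in thalamic-like neurons in both fits, while the Npas2 change in neuron-like nuclei goes from -0.53 to -0.033.

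Differences between classes in the change over time were tested directly, for 10 pairs of classes. The pairs were made from thalamic-like, other glutamatergic-like and GABAergic-like neurons and astrocyte-like and oligodendrocyte-like nuclei. Oligodendrocyte precursor-like and endothelial-like nuclei were left out. Their Arntl changes, 1.06 ± 0.34 and 1.08 ± 0.40 and neither called, were thus not compared with the astrocyte-like one. The Arntl change was larger in astrocyte-like nuclei than in thalamic-like neurons by 0.78 ± 0.14 on the log2 scale (edgeR class by time term, adjusted p = 2.0e-04), in a comparison with 1.43% of genes called. It exceeded the change in other glutamatergic-like neurons by 1.24 ± 0.18 (edgeR adjusted p = 7.6e-07, 1.31% called) and that in GABAergic-like neurons by 0.62 ± 0.17 (edgeR adjusted p = 0.016, 2.97% called). These 3 differences were also called with equal nuclei of each cluster (edgeR adjusted p = 6.3e-04, 3.1e-06 and 0.012), where 1.26, 1.20 and 0.917% of genes were called. The last was lost without ZT8 replicate 2, ZT20 replicate 1 or ZT20 replicate 2 (edgeR adjusted p = 0.49, 0.16 and 0.099). Against oligodendrocyte-like nuclei the difference was -0.88 ± 0.26, oligodendrocyte-like minus astrocyte-like (edgeR adjusted p = 0.054, 1.56% called).

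None of the 10 class by time terms was called for Clock or Arntl2 in edgeR, and 0 had an unadjusted p under 0.05. For Npas2, the other glutamatergic-like change lay below the thalamic-like one by 0.71 ± 0.15 (log2 difference -0.71, edgeR adjusted p = 0.0033, 1.27% called) and the GABAergic-like change lay above the other glutamatergic-like one by 1.01 ± 0.17 (edgeR adjusted p = 3.2e-05, 3.93% called). The differences were -0.59 ± 0.18 and 0.71 ± 0.26 with equal nuclei of each cluster, and neither was called (edgeR adjusted p = 0.11 and 0.40, with 0.844 and 0.502% of genes called).

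Among the 14 neuron clusters with at least 50 nuclei in every library, Npas2 ranged 14-fold, from 19.1 CPM in N12 to 267 CPM in N6. N12 is an other glutamatergic-like cluster led by Nfia, Klhl1 and Tcf4, and N6 a thalamic-like cluster led by Col25a1, Lef1 and Vav3. Clusters N18 and N10, also thalamic-like, followed at 241 ± 12.2 and 232 ± 39.3 CPM and overlapped with N6. The thalamic-like class was not uniform, since N1 and N4 held 91.4 ± 11.4 and 83.9 ± 6.22 CPM. A GABAergic-like cluster, N14, led by Meis2, Phactr1 and Rarb, reached 133 ± 28.0 CPM, against 32.2 ± 5.18 CPM in the GABAergic-like cluster N2. The Sim1-positive PVN-like neurons, led by Oxt, Sim1 and Avp, held 33.5 CPM of Npas2 and 52.4 CPM of Arntl over 476 nuclei, most of them from ZT20. By library, their Npas2 was 8.19 and 50.4 CPM at ZT8, on 4 and 26 UMIs, and 33.2 and 35.4 CPM at ZT20. Their Arntl was 57.3 and 58.2 CPM at ZT8 and 52.2 and 50.1 CPM at ZT20, lower by night without overlap and not tested.

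Across the same 14 clusters Arntl ranged 2.88-fold, Arntl2 1.60-fold and Clock 1.22-fold. The levels of Arntl and Npas2 went together (Pearson r = 0.83, Spearman rho = 0.82, on log2(CPM + 1), n = 14 clusters). For Arntl and Clock r was 0.65, and for Arntl2 and Npas2 it was -0.18. The clusters share libraries and differ in depth, so these are descriptions. The clock genes were left out of the genes used to build the clusters. Over time, Npas2 fell in N6, from 297 and 280 to 236 and 255 CPM (log2 change -0.25 ± 0.074, edgeR adjusted p = 0.031, 6.48% of genes called). No other cluster had a call for Npas2, and none had one for Clock or Arntl2 in edgeR, each of which had an unadjusted p under 0.05 in 1 of 14 clusters. In these tests 0.262 to 6.80% of genes were called in a cluster.

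**Figure D5:**
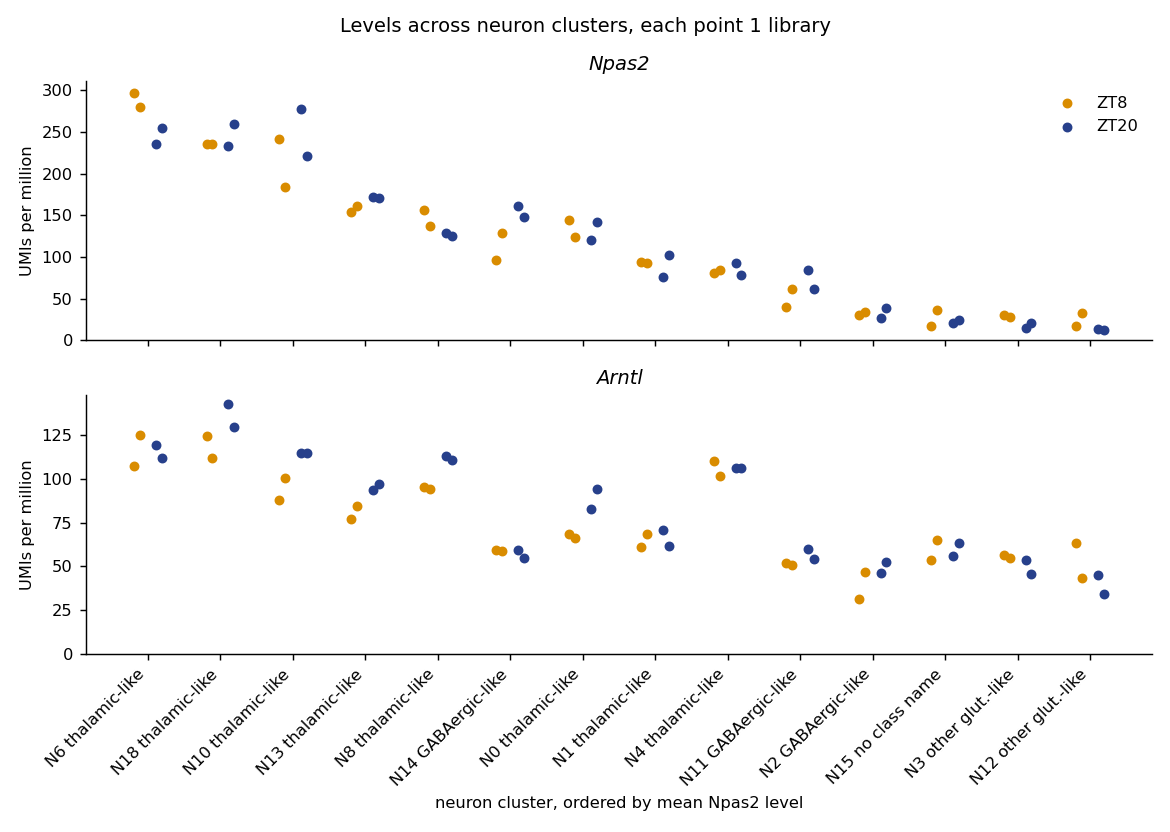
Npas2 (top) and Arntl (bottom) in CPM (linear axes from 0) in the 14 neuron clusters with at least 50 nuclei in every library, ordered by mean Npas2, with 1 point per library (orange ZT8, blue ZT20). Npas2 runs from 267 CPM in N6 to 19.1 CPM in N12, and Arntl is also higher in the thalamic-like clusters on the left.

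The genes whose levels across the 8 classes were most like a member's were named by Pearson r over log2(CPM + 1), from 14005 genes. For Npas2 they were Cap2 (r = 0.961), Arntl (0.960) and Gtf2ird1 (0.942). For Arntl they were Gpr153, Gtf2ird1 and Fam214b, at 0.974, 0.965 and 0.965. For Clock they were Shcbp1l, Zfp169 and Epb41l3, and for Arntl2 they were Agbl4, Cfap54 and Robo2. With 8 points the choice is loose, and 0 of 3 names were shared with a ranking by Spearman rho for any member.

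Partner and target genes of the activators were counted by list beside Arntl in astrocyte-like nuclei, where the median log2 change of all genes was 0.0033 and 6.74% of genes were called. Of the 3 PAR bZIP genes tested, which are E-box targets, 3 fell: Dbp by 1.74, Tef by 0.63 and Hlf by 0.38 on the log2 scale (edgeR adjusted p = 9.5e-15, 1.5e-06 and 0.0033). Of 5 REV-ERB and ROR receptor genes, 2 fell and 1 rose. Nr1d1, a repressor of Arntl, was 92.4 and 90.6 CPM at ZT8 and 35.0 and 33.8 CPM at ZT20, and fell by 1.35 (edgeR adjusted p = 1.5e-10). Nr1d2 fell by 0.79, and Rorb, an activator, rose by 0.18 (edgeR adjusted p = 0.031), a call lost with equal nuclei of each cluster at a log2 change of 0.19 (edgeR adjusted p = 0.057). Of 5 PER and CRY genes, 2 fell, Per1 by 0.76 and Per3 by 0.37. Of 4 other E-box repressors, 2 fell, Ciart by 2.07 and Bhlhe40 by 0.71. None of 20 regulators of the clock proteins passed the test in edgeR, and 2 had an unadjusted p under 0.05. Of 9 other bHLH-PAS genes tested, 1 fell, Hif3a by 0.98 (edgeR adjusted p = 3.9e-10). Median log2 changes were -0.63 for the PAR bZIP list, -0.36 for the receptors, -0.29 for PER and CRY, -0.38 for the other repressors, -0.031 for the regulators and -0.029 for the bHLH-PAS genes.

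In thalamic-like neurons the same lists were counted, beside a median log2 change of 0.0024 over all genes and 20.1% of genes called. Nr1d1 was 20.6 and 20.9 CPM at ZT8 and 14.6 and 14.9 CPM at ZT20 and fell by 0.48 (edgeR adjusted p = 1.0e-05). Dbp fell by 0.52, Hlf by 0.17, and Nfil3, a repressor of the D-box, rose by 0.51. Of 4 REV-ERB and ROR genes tested, 3 fell and 1 rose, with a median of -0.10. Of 4 other E-box repressors 3 fell, Bhlhe40 by 0.29, Ciart by 0.27 and Cipc by 0.15, with a median of -0.21. Per2 rose by 0.59 (edgeR adjusted p = 4.0e-07), while Cry2 and Per3 fell by 0.13 and 0.17. Of 14 other bHLH-PAS genes tested, 2 fell, Arnt2 by 0.22 and Ncoa2 by 0.16, and Sim1 rose by 2.57, a PVN marker named above. That is 3 of 14, near the share over all genes. Rorb turned to a log2 change of -0.018 with equal nuclei of each cluster (edgeR adjusted p = 0.72). The calls of Nr1d2 (-0.074), Cry2 (-0.11), Cipc (-0.16) and Arnt2 (-0.14) were also lost there, with edgeR adjusted p from 0.075 to 0.31.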

How the data were processed

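The authors deposited raw UMI counts per gene and barcode, made with Cell Ranger 7.0.0 per the file headers, with STAR 2.6 and mm10 named in the submitters' processing notes. Counting of introns and strand is not given in the sources used here. Filters required 500 genes or more and no more than 5% mitochondrial UMIs per nucleus, and the highest Scrublet scores were removed (0.8% per 1000 nuclei). Clusters (scanpy, Leiden, resolution 1, clock genes left out) were named from marker lists, with score thresholds set after the clusters were seen; clusters with few UMIs, high doublet scores or low marker scores stayed unnamed but count in all kept nuclei. Sums of UMI counts were taken over each class of at least 50 nuclei in every library, and ZT20 was compared with ZT8 with edgeR 4.0.16 (TMM, filterByExpr, robust quasi-likelihood test, two-sided, Benjamini-Hochberg over all genes tested, called at 0.05). DESeq2 1.42.0 was an alternative. Another drew equal nuclei of each cluster from every library, in a single random draw, down to the smallest library's count. Such draws leave fewer nuclei. GABAergic-like neurons had 336 per library where 461 to 706 were kept, and neurons without a class name 234 where 316 to 714 were kept. Whether a lost call came with fewer counts or with altered makeup was not tested. The pipeline was tested on simulated data. Named genes were the 4 members and up to 3 per list with the smallest p in the class described. The members and lists were chosen with earlier results of these data known. Promoters came from RefSeq (GRCm38.p6), gene positions from GENCODE M21; protein sequences were not used here.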

Additional observations from a re-analysis of the deposited data

Results flagged for a closer look

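The change from ZT8 to ZT20 differed between classes in 9 edgeR class by time terms, each for a single gene in a single pair of classes. All 9 were for Arntl or Npas2. Each gene was tested in the 10 pairs of classes named above, and some pairs held a term for both genes. In the pairs listed here, 1.27 to 6.73% of genes were called. For Arntl, on the log2 scale, the change was larger in astrocyte-like nuclei than in thalamic-like neurons by 0.78. It exceeded that in other glutamatergic-like neurons by 1.24 and that in GABAergic-like neurons by 0.62. The Arntl change in other glutamatergic-like neurons minus that in thalamic-like neurons was -0.46 (adjusted p = 0.0195), and GABAergic-like minus other glutamatergic-like was 0.62 (adjusted p = 0.0032). For Npas2, other glutamatergic-like minus thalamic-like was -0.71, GABAergic-like minus thalamic-like 0.29 (adjusted p = 0.015), GABAergic-like minus other glutamatergic-like 1.01, and astrocyte-like minus other glutamatergic-like 0.71 (adjusted p = 0.026). With equal nuclei of each cluster, only the 3 Arntl differences that involve astrocyte-like nuclei were called.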

How the results depend on the processing

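The rises of Arntl in astrocyte-like nuclei (log2 change 0.90 to 1.05) and in thalamic-like neurons (0.17 to 0.22) were called under each alternative run, including DESeq2, the replicate block and the loss of any 1 library. With the replicate number as a block they were 0.97 and 0.20; the labels do not tie equal numbers to a shared day, so no pairing was read, and the block changed 1 call, Npas2 in neurons without a class name (0.36, adjusted p = 0.025), and 1 count, endothelial-like genes called (57). Where a fit leaves 1 library at a time, that library is assumed to vary like the others. The cause of each change below was not tested.

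With equal nuclei of each cluster, signs turned for Arntl in all kept nuclei (0.18) and neuron-like nuclei (0.14), for Arntl2 in neuron-like nuclei (-0.0062), GABAergic-like (0.15) and other glutamatergic-like neurons (-0.067), for Npas2 in astrocyte-like nuclei (-0.045) and thalamic-like neurons (-0.0075), and for Clock in neurons without a class name (0.0067). Calls were lost for Clock in all kept nuclei (-0.021) and neuron-like nuclei (-0.022), Npas2 in neuron-like (-0.033), GABAergic-like (0.12) and other glutamatergic-like (-0.60) nuclei, Arntl in GABAergic-like neurons (0.17) and, in neurons without a class name, Arntl (0.14) and Arntl2 (0.31). Between classes, calls were lost for Arntl in other glutamatergic-like minus thalamic-like (-0.41) and GABAergic-like minus other glutamatergic-like (0.40), and for Npas2 in other glutamatergic-like minus thalamic-like (-0.59), GABAergic-like minus thalamic-like (0.11), GABAergic-like minus other glutamatergic-like (0.71) and astrocyte-like minus other glutamatergic-like (0.56). Genes called fell to 5503 in all kept nuclei, 3779 neuron-like, 624 GABAergic-like, 806 oligodendrocyte-like, 16 endothelial-like and 248 without a class name, and to 427 astrocyte-like with equal sub-clusters.

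DESeq2 lost Clock in neuron-like nuclei (-0.083), Arntl (0.35) and Npas2 (0.30) in GABAergic-like neurons and Arntl in neurons without a class name (0.36), and called 6583 genes in all kept nuclei, 5051 neuron-like, 1193 thalamic-like, 840 GABAergic-like, 583 without a class name, 348 oligodendrocyte-like, 162 astrocyte-like, 98 other glutamatergic-like, 36 endothelial-like, 3 oligodendrocyte precursor-like and 1 microglia-like. The stricter filter on nuclei gave Arntl 0.0078 and called Arntl2 (0.15) in all kept nuclei. No low-count filter called Npas2 in neurons without a class name (0.38), as did clustering at resolution 2 (0.71), which also turned Arntl2 (0.017) and lost Npas2 (0.13) in GABAergic-like neurons. With more doublet scores removed, 40 endothelial-like genes were called. Rankings of most alike genes shared 0 of 3 names with those by Spearman rho and those across neuron clusters, for each of the 4 genes.

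Without each library in turn, values with a changed call or sign ranged as follows. For Arntl they were 0.26 to 0.46 in GABAergic-like neurons, 0.21 to 0.55 without a class name, -0.43 to -0.13 in other glutamatergic-like neurons, 0.46 to 0.80 for GABAergic-like minus other glutamatergic-like, 0.45 to 0.79 for astrocyte-like minus GABAergic-like and -0.60 to -0.34 for other glutamatergic-like minus thalamic-like. For Arntl2 they were -0.21 to 0.10 in GABAergic-like neurons, 0.032 to 0.15 in all kept nuclei and -0.42 to 0.081 in astrocyte-like nuclei. For Clock they were -0.063 to 0.15 in GABAergic-like, -0.27 to 0.31 in endothelial-like, -0.16 to 0.20 in microglia-like, -0.089 to -0.071 in neuron-like, -0.013 to 0.24 in oligodendrocyte precursor-like, -0.14 to 0.080 in oligodendrocyte-like and -0.059 to 0.0015 in thalamic-like nuclei. For Npas2 they were 0.18 to 0.43 in GABAergic-like, -0.035 to 0.065 in astrocyte-like and -0.67 to 0.45 in endothelial-like nuclei. They were 0.22 to 0.48 in neurons without a class name and -0.33 to 2.12 in oligodendrocyte precursor-like nuclei. The Npas2 ranges were -1.80 to 0.19 in oligodendrocyte-like, -0.82 to -0.59 in other glutamatergic-like and -0.041 to 0.061 in thalamic-like nuclei. Between classes, Npas2 ranged from 0.21 to 0.36 for GABAergic-like minus thalamic-like, 0.60 to 0.81 for astrocyte-like minus other glutamatergic-like and -0.83 to -0.60 for other glutamatergic-like minus thalamic-like. Genes called ranged from 1491 to 2343 GABAergic-like, 481 to 549 astrocyte-like, 139 to 365 endothelial-like, 16 to 158 microglia-like, 903 to 2044 without a class name, 50 to 174 oligodendrocyte precursor-like, 745 to 924 oligodendrocyte-like and 450 to 653 other glutamatergic-like.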
